A study of Homo sapiens with 15 samples.

Results

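USP7 knockout DLD1 cells (KO) were compared with parental DLD1 cells (WT). DLD1 is an epithelial cell line from a human colorectal cancer. The comparison holds the 3 libraries of KO cells that received no doxycycline and the 3 libraries of WT cells, taken by group from the sample labels, which makes 6 of the 15 libraries in the series. KO cells carried a disrupted USP7 gene, a GFP-USP7 transgene on the pTREG-BI-USP7 plasmid and the Tet-ON pEF1α-Tet3G plasmid, and had been selected in G418. WT cells were untreated parental cells, and the labels give them no plasmid. The remaining 9 libraries are the KO line given doxycycline at 1 µg/ml for 1, 3 or 9 days; they entered the fit as further groups. Loss of USP7, the transgene, the selection and any property of the KO line cannot be told apart here, and whether the line came from 1 clone is not stated in the labels.

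USP7 is a deubiquitinase, an enzyme that takes ubiquitin off other proteins and so changes how long they last or what they bind. Its known substrates include the ubiquitin ligase MDM2. It also sits in variant Polycomb repressive complexes 1, which place a single ubiquitin on histone H2A and mark repressed developmental genes. In the colon, epithelial cells leave a dividing stem cell pool at the crypt base and become absorptive cells with a brush border or secretory cells that make mucins and trefoil peptides, and cancer lines such as DLD1 hold parts of these programmes.

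Poly(A) RNA was sequenced and the authors deposited normalized counts per gene, in which each library's counts are scaled to a common depth. All values below are normalized counts, and ± is the SD over n = 3 libraries unless an SE is named. They are not per gene length, so levels are compared within a gene and not between genes. The 6 libraries summed to 14868374 to 15347043 normalized counts with 20857 to 21314 genes above 0, and replicates correlated with r from 0.9952 to 0.9957 across genes. Fold changes are KO minus WT on log2(value + 1), which understates changes of low genes. A signed value in parentheses with no other name is this log2 fold change, and "rose" and "fell" are used of genes with adjusted p under 0.05. Adjusted p comes from limma, adjusted by the Benjamini-Hochberg method over 15134 genes. Of 11 colorectal epithelium markers, 10 were in the table; they summed to 150778 to 157239 in KO libraries and 98691 to 101188 in WT libraries. Markers of leukocytes (2 of 6 in the table), fibroblasts (2 of 8) and endothelium (1 of 4) each summed to under 100 in every library. Neural markers (3 of 4) summed to 331 to 383 in KO libraries and 857 to 1014 in WT libraries, and leukocyte markers, CD14 and CD68 alone, to 37.9 to 48.8 in KO libraries and 17.0 to 25.9 in WT libraries; the part of other cell types in the results was not tested.

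USP7 transcript (ENSG00000187555) was 1403, 1369.6 and 1395 in KO libraries, against 3421, 3373 and 3382 in WT libraries. The groups did not overlap, and the KO level was 2.44-fold lower (log2 fold change -1.29 ± 0.049 (SE), adjusted p = 8.95e-15). In bulk RNA, a lower value from fewer cells that express a gene and one from less RNA per cell cannot be told apart. The table does not separate endogenous from transgene USP7 transcript. Of the 15134 genes tested, 49.7% passed adjusted p under 0.05, with 24.8% higher and 24.8% lower in KO. Changes of at least 2-fold made up 8.72% of genes, 3.65% higher and 5.06% lower. Counts of called members in the lists and families below are to be read beside these shares. The KO and WT libraries did not overlap for 63.1% of the genes tested, so a lack of overlap is common. Over 23 chromosomes the median log2 fold change ran from -0.06 to 0.05.

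The genes that changed most while being measured in every library were taken as the 15 largest increases and the 15 largest decreases. Genes entered this ranking if their mean reached 100 and their lowest library reached 10. They also had to have adjusted p under 0.05 and KO and WT libraries that did not overlap. After SULF2, MUC6, H19, LGALS4, BCL2 and SATB1, the increases included secreted, surface and signalling genes. KLK11, a kallikrein serine protease, had 207, 271 and 258 in KO libraries, against 30.9, 29.97 and 30.8 in WT libraries (log2 fold change 2.95 ± 0.15 (SE), adjusted p = 9.05e-13). CNTNAP2, a neurexin-family adhesion protein, had 215, 187 and 217 in KO libraries, against 32.9, 28.97 and 20.9 in WT libraries (2.88). All 3 KO libraries stood well above all 3 WT libraries for both. TMOD2, a tropomodulin that caps actin filaments, had 682, 669.9 and 694 in KO libraries, against 103, 98.9 and 100.5 in WT libraries (2.75). The membrane carbonic anhydrase CA12 had 494, 531 and 511 in KO libraries, against 91.7, 86.9 and 90.5 in WT libraries (2.50). The growth factor receptor FGFR3 had 657, 773 and 793 in KO libraries, against 119.6, 131 and 142 in WT libraries (2.49). The inducible nitric oxide synthase NOS2 had 190.3, 189 and 205 in KO libraries, against 35.9, 37.96 and 32.8 in WT libraries (2.42). Because the ranking took only genes whose groups did not overlap, every KO library was above every WT library in each by construction.

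**Figure D1:**
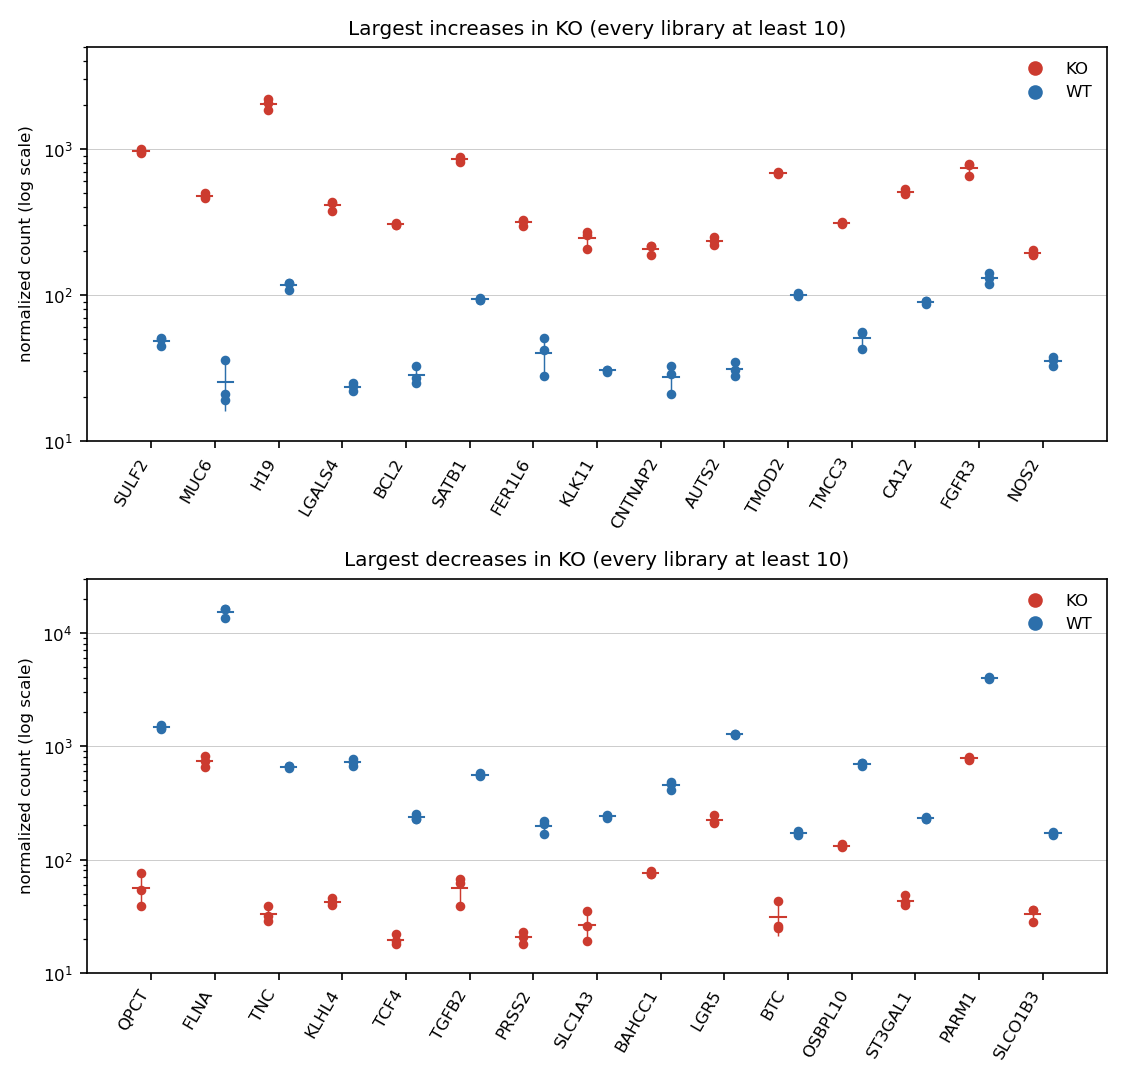
Normalized counts (log axis) of the 15 genes with the largest increases and the 15 with the largest decreases in KO, for genes whose mean reached 100 and whose lowest library reached 10. Each point is 1 library, KO left of WT for each gene, with a line at the mean and a bar of ± SD (n = 3). Only genes with adjusted p under 0.05 and groups that did not overlap were ranked. The increases start at SULF2 and MUC6 and the decreases at QPCT and FLNA.

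The largest decrease by this rule was of QPCT, a glutaminyl cyclase that modifies the ends of secreted peptides, with 76.7, 53.7 and 38.8 in KO libraries, against 1546, 1437 and 1415 in WT libraries (log2 fold change -4.73 ± 0.17 (SE), adjusted p = 1.48e-11). FLNA, the actin crosslinker filamin A and an abundant transcript of WT cells, had 649, 818 and 740.5 in KO libraries, against 13465, 16350.3 and 16351 in WT libraries (log2 fold change -4.39 ± 0.22 (SE), adjusted p = 1.5e-08). For both genes the highest KO library stood far below the lowest WT library. KLHL4, a BTB-kelch protein, had 45.8, 39.8 and 41.8 in KO libraries, against 768, 727 and 669 in WT libraries (-4.05). The transcription factor TCF4, an E-protein that pairs with other helix-loop-helix factors, had 18.9, 21.9 and 17.9 in KO libraries, against 253, 228 and 229 in WT libraries (-3.53). SLC1A3, a glutamate transporter, had 18.9, 25.9 and 34.8 in KO libraries, against 242, 234 and 247 in WT libraries (-3.17). Because the ranking took only genes whose groups did not overlap, every KO library was below every WT library by construction in each gene ranked here. ST3GAL1, which adds sialic acid to O-glycans, had 41.9, 39.8 and 48.8 in KO libraries, against 228, 229.8 and 239 in WT libraries (-2.40). SLCO1B3, an organic anion transporter with close paralogs beside it, had 35.9, 27.9 and 35.8 in KO libraries, against 176, 165 and 169 in WT libraries (-2.33). The trypsinogen PRSS2 also fell (20.6 in KO and 197 in WT), but reads of its near-identical paralogs may be split or shared.

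Among abundant genes, whose mean reached 2000, the drug efflux pump ABCB1 had the largest increase, with 4326, 4512 and 4532 in KO libraries, against 1277, 1238 and 1162 in WT libraries (log2 fold change 1.86 ± 0.043 (SE), adjusted p = 2.66e-18). DFFA, the inhibitor of the apoptotic DNase, had 3949, 3789 and 3778 in KO libraries, against 1176, 1165 and 1151 in WT libraries (1.72). The epithelial ETS factor ELF3 had 3304, 3759 and 3715 in KO libraries, against 1109, 1173 and 1136 in WT libraries (1.65). These were followed by DHRS7, EEF1A2, SYTL2, ASS1, SF3B6, EIF3K and GDPD3, which rose by 1.15 to 1.46 log2 units. Below FLNA, the abundant genes that fell most were PARM1, a mucin-like membrane protein, with 757, 775 and 803 in KO libraries, against 4087, 4009.9 and 3925 in WT libraries (-2.36), and the cochaperone HSPH1, with 1016, 1061 and 1023 in KO libraries, against 4926, 4839 and 4804 in WT libraries (-2.23). NT5E, the ecto-enzyme CD73 that makes adenosine, had 1317, 1257 and 1319.7 in KO libraries, against 3284, 3168 and 3183 in WT libraries (-1.31). ANXA1, a calcium-dependent phospholipid binder, had 1710.0, 1447 and 1595 in KO libraries, against 3138, 2973 and 3092 in WT libraries (-0.96). The mitochondrial 16S ribosomal RNA MT-RNR2 fell too (11549.6 in KO and 24268 in WT, -1.07).

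Genes listed at 0 in every KO library formed a separate class. The table held 507 of them, and 99 passed the filter on low values, which they could do only through the other groups. The highest WT levels among those 99 belonged to MAGED1, a MAGE-family adaptor, at 771, 828 and 789 in WT libraries, and to the potassium channel KCNJ5, at 575, 603 and 619 in WT libraries. WDR76, a WD-repeat protein, had 511, 498 and 459 in WT libraries, and SPIN3, of the Spindlin family of histone readers, had 453, 418 and 452 in WT libraries. No fold change is given for these genes because one group is at 0. The class held 19 of the 382 tested ZNF zinc finger genes, beside 99 of all 15134 genes tested. Examples were ZNF680 (323, 344 and 321 in WT libraries) and ZNF780B (301, 324 and 300.4 in WT libraries). Metabolic genes in the class included NME4, a nucleoside diphosphate kinase (244, 291 and 304 in WT libraries), the extracellular glutathione peroxidase GPX3 (97.7, 105 and 103 in WT libraries) and the fatty acid desaturase FADS1 (32.9, 24.97 and 37.8 in WT libraries). Of actin genes, the tropomyosin TPM2 had 45.8, 32.97 and 31.8 in WT libraries.

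Genes at 0 in every WT library were lower: 346 were in the table, and 5 passed the filter on low values. TOX, a chromatin-binding HMG-box protein, had 48.8, 37.8 and 45.8 in KO libraries. The gel-forming mucin MUC5B had 26.9, 47.8 and 45.8 in KO libraries. STC1, a secreted glycoprotein hormone, had 13.95, 21.9 and 29.9 in KO libraries. The orphan receptor gene GPR78 had 16.9, 10.9 and 12.9 in KO libraries and the synaptic vesicle gene RPH3A had 8.97, 11.9 and 16.9 in KO libraries.

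The tested genes next to some of the largest changes, in genome order, were also read; with 49.7% of all genes called, a called neighbour is common, and the stretches given here were picked for their values. H19, a non-coding RNA made from the maternal copy of its imprinted region, had 1842, 2076 and 2187 in KO and 108, 122 and 121 in WT, while the growth factor IGF2 next to it, made from the paternal copy, had 1.99, 0.995 and 0.995 in KO and 42.9, 41.96 and 32.8 in WT (-4.13). MRPL23-AS1 on the other side of H19 was at 10.95 in KO and 1.99 in WT. The directions of H19 and IGF2 were opposite. In the kallikrein cluster, KLK10 (2337 in KO and 998 in WT) and KLK12 (33.5 in KO and 10.3 in WT) rose with KLK11, but KLK7 fell (9.96 ± 1.002 in KO and 116 ± 9.96 in WT). The mucins MUC6 and MUC2 both rose, and LINC02688 between them did not pass (17.3 in KO and 19.3 in WT). In another stretch, the EGFR ligands EREG (-0.81), AREG (-0.52) and BTC (-2.47), then PARM1 (-2.36) and LINC02562 (-1.52), 5 tested genes in a row, all fell. Next to TEAD2 was a gene without a symbol (ENSG00000197813, 0 in KO and 17.3 in WT). Beyond it was SLC6A16, also at 0 in KO (31.9, 36.96 and 38.8 in WT libraries). RASSF10 had its divergent transcript RASSF10-DT at 0 as well (49.8, 34.96 and 40.8 in WT libraries). WDR76 lay between MFAP1 (408 ± 13.7 in KO and 829.7 ± 11.3 in WT) and FRMD5 (146 ± 7.73 in KO and 448 ± 8.65 in WT), which both fell.

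Long non-coding genes fell more often than they rose. Of 566 long intergenic non-coding genes tested, 66 rose (11.7%) and 158 fell (27.9%), with a median log2 fold change of -0.24. Of 669 antisense genes 61 rose (9.12%) and 217 fell (32.4%), with a median of -0.31. Over all genes 24.8% rose and 24.8% fell. The shares that rose were therefore further from those of all genes than the shares that fell. Protein-coding genes were nearly even, 3497 higher and 3179 lower of 12457, with a median of 0.02. The non-coding genes were low, with a median level of 22.8 and 22.6 against 547 for coding genes. The kit marks strand, but no source used here says whether counting kept it, so reads of an antisense gene and of its partner may not be separated.

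Mitotic genes fell as a group. Of 69 tested, 63 fell (91.3%, beside 24.8% of all genes), 1 rose and 5 did not pass. The median log2 fold change was -0.44, beside 0.00 over all genes. The kinetochore gene NUF2 had 391, 321 and 322 in KO libraries, against 894, 811 and 838 in WT libraries (log2 fold change -1.30 ± 0.094 (SE), adjusted p = 5.63e-10). PSRC1, a microtubule regulator of the spindle, had 619, 585 and 625 in KO libraries, against 1042, 1123 and 1058 in WT libraries (-0.82). SPC24, of the same kinetochore complex as NUF2, had 405, 407 and 376 in KO libraries, against 676, 721 and 663 in WT libraries (-0.79). The KO libraries were below the WT libraries in each, while the groups did not overlap for 63.1% of all genes. CCNB2, a cyclin that drives entry into mitosis, had 1474, 1499 and 1435 in KO libraries, against 2207, 2208 and 2159.6 in WT libraries (-0.58). The proliferation marker MKI67 had 11461, 11289 and 11038 in KO libraries, against 16083, 16305 and 16131 in WT libraries (-0.52). KIF23, a motor of the cleavage furrow, had 1730.0, 1639 and 1655 in KO libraries, against 2573, 2568 and 2473 in WT libraries (-0.60). CDC25C, ASPM and NUF2 were the 3 members that fell at least 2-fold. Kinesins as a family had 17 of 32 lower and 3 higher.

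Most DNA replication genes did not pass. Of 54 DNA replication genes, 11 rose, 8 fell and 35 did not pass. The shares that rose and fell, 20.4% and 14.8%, were below the 24.8% and 24.8% of all genes. MCM7, a subunit of the replicative helicase, rose (6535 in KO and 5120.2 in WT, 0.35), as did MCM6 (0.29) and the G1 factor E2F1 (0.28), while the ligase LIG1 (1403 in KO and 1934 in WT, -0.46) and the ribonucleotide reductase subunit RRM2 (-0.35) fell. With only the 6 KO and WT libraries in the fit, 20 rose; without KO replicate 3 in it, 5 fell. Among G1 regulators, cyclin CCND2 had 27.9, 30.9 and 48.8 in KO libraries, against 4.98, 5.99 and 3.98 in WT libraries (2.59), the CDK inhibitor CDKN1C had 238, 235 and 217 in KO libraries, against 78.7, 84.9 and 79.6 in WT libraries (1.49), and the inhibitor CDKN2C had 133, 128 and 142 in KO libraries, against 270.1, 285 and 286 in WT libraries (-1.06). CDKN1A, another CDK inhibitor, did not pass, at 380.4 ± 17.1 in KO and 343 ± 24.6 in WT. DNA repair and checkpoint genes had 30 lower and 8 higher of 71, with the checkpoint kinase ATM at 1281, 1356 and 1284 in KO libraries, against 2017, 2067 and 2068 in WT libraries (-0.65) and BRCA1 at 1209 in KO and 1636 in WT (-0.44). Without KO replicate 1, KO replicate 3 or WT replicate 2, 4 repair genes rose, and without KO replicate 2 or WT replicate 1, 5 did.

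The CHR element (TTTGAA or TTCGAA, either strand), a site of the cell cycle repressor and activator complexes DREAM and MYB-MuvB, was found in 40 of the 58 members with a RefSeq promoter (69.0%), against 11.2% of 10954 promoters of tested genes of the same 300 bases. Only 72.4% of the tested genes had a promoter in the RefSeq table, so this and the motif shares given further on describe those promoters and not all tested genes. CCAAT boxes, spelled CCAAT, were in 44 of the 58 (75.9%), against 36.7%. A match is a run of letters and not a measured binding site. The promoters of ASPM and TOP2A, from RefSeq on GRCh38.p14, are shown as the 2 lower members with the lowest adjusted p whose window holds a CHR, 5′ to 3′ along the gene from 250 bases before its start to 50 after. They lie at chr1:197146620-197146919 (minus strand) and chr17:40417847-40418146 (minus strand), and capitals mark the CHR letters.
ASPM promoter: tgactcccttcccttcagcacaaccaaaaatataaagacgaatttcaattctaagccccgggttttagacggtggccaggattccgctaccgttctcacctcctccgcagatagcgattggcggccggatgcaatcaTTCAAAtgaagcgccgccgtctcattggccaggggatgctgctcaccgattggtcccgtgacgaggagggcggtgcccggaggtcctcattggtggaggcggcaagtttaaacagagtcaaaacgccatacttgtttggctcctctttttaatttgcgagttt
TOP2A promoter: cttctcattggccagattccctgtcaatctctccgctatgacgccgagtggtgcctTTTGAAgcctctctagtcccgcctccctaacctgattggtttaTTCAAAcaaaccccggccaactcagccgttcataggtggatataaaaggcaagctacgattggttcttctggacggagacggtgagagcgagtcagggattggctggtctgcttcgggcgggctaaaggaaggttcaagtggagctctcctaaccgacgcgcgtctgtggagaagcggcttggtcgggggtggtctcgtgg

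Genes of ribosome production rose. Of 53 MYC target and ribosome biogenesis genes, 46 rose and 2 fell, with a median of 0.32. NOP16, a nucleolar assembly factor of the large subunit, had 919.8, 892 and 917 in KO libraries, against 575, 582 and 609 in WT libraries (log2 fold change 0.63 ± 0.067 (SE), adjusted p = 1.32e-07). The nucleolar chaperone NPM1 had 18729.6, 17905 and 18420.5 in KO libraries, against 13592, 12780.0 and 13308 in WT libraries (0.47). WDR3, of the small subunit processome, had 2401, 2351 and 2231 in KO libraries, against 1695, 1544 and 1586 in WT libraries (0.53). Changes were under 2-fold for all members but MYC. MXD3, a MYC antagonist that pairs with MAX, fell (146, 150.3 and 143 in KO and 276, 325 and 343 in WT, -1.09). Ribosomal protein genes rose in 51 of 77 and fell in 2, with many processed pseudogenes that can share their reads. The E-box CACGTG was in 15 of 44 promoters of the biogenesis list (34.1%), against 9.93% of the 10954. The 2 rising members with the lowest adjusted p that hold it are SRM, the spermidine synthase, at chr1:11059969-11060268 (minus strand), and FBL, the methyltransferase of ribosomal RNA, at chr19:39846330-39846629 (minus strand). Capitals mark CACGTG.
SRM promoter: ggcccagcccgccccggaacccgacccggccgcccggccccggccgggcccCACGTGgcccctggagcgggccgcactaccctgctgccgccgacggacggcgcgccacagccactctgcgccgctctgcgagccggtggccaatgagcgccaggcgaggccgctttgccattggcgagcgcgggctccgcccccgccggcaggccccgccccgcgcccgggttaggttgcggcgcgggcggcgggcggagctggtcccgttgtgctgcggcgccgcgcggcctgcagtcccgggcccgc
FBL promoter: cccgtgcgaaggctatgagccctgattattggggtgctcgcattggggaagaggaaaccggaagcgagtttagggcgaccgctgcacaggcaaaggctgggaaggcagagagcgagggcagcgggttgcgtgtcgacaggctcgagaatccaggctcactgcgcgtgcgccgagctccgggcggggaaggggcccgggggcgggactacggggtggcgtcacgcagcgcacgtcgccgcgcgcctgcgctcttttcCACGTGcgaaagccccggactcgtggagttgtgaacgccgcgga

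Proteasome subunits rose in 25 of 31, with a median of 0.21, and 1 fell. PSMD1, a base subunit of the regulatory particle, had 5081, 4764 and 4689.7 in KO libraries, against 3683, 3656 and 3659.7 in WT libraries (log2 fold change 0.40 ± 0.049 (SE), adjusted p = 7.66e-07). Endoplasmic reticulum chaperone and unfolded protein genes rose in 21 of 27, with a median of 0.25. The transcription factor XBP1 had 2043, 2071 and 2099 in KO libraries, against 1609.6, 1591 and 1618 in WT libraries (0.37) and the chaperone HSP90B1 had 26478, 25658 and 25071 in KO libraries, against 20033, 19738 and 20197 in WT libraries (0.36). Nuclear genes of oxidative phosphorylation rose in 27 of 50, as in UQCRH of complex III (3165, 2971 and 3033 in KO and 2173, 2065 and 2050.2 in WT, 0.54), and 1 fell. All members named here changed by less than 2-fold. Cytosolic heat shock chaperones were mixed, 9 higher and 7 lower of 23, with HSPA8 at 33999 in KO and 43256 in WT and its regulator HSF1 at 556 in KO and 892 in WT. Aminoacyl-tRNA synthetases rose in 12 of 20, while SARS1 (-0.46) and IARS1 (-0.47) fell. The ER stress element, spelled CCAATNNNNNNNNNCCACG, was in 6 of 26 ER chaperone promoters (23.1%), against 0.119% of the 10954. It stands in the promoters of CALR, a calcium-binding chaperone (20071 in KO and 13619 in WT), and HSPA5, the chaperone BiP (13552 in KO and 9679.6 in WT), at chr19:12938359-12938658 (plus strand) and chr9:125241294-125241593 (minus strand). Capitals mark the element, which lies on the opposite strand in CALR.
CALR promoter: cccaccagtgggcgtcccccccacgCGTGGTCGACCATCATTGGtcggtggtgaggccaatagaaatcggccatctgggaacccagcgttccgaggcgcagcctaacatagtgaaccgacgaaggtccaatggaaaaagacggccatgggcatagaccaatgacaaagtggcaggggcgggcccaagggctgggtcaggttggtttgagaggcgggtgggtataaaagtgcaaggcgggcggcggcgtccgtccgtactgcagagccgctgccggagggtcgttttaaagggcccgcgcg
HSPA5 promoter: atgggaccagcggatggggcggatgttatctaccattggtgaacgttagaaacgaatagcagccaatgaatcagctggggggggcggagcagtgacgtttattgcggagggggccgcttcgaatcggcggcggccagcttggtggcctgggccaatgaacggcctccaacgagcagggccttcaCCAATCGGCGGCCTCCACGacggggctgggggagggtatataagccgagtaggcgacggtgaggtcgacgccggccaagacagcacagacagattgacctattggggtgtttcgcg

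Interferon-stimulated genes were lower in KO cells. Of 47 tested, 26 fell and 4 rose, 9 fell at least 2-fold, and the median was -0.23. GBP3, a guanylate-binding protein, had 176, 162 and 160.2 in KO libraries, against 568, 565 and 557 in WT libraries (log2 fold change -1.76 ± 0.065 (SE), adjusted p = 6.75e-15). HERC5, the ligase that attaches ISG15, had 1.99, 2.99 and 1.99 in KO libraries, against 129, 113 and 117 in WT libraries (log2 fold change -5.19 ± 0.38 (SE), adjusted p = 9.54e-10). IFIT1, which binds foreign RNA ends, had 63.8, 55.7 and 54.7 in KO libraries, against 136, 128 and 138 in WT libraries (-1.19). In all of these every WT library was above every KO library, while the groups did not overlap for 63.1% of all genes. The RNA sensor IFIH1 had 385, 430.0 and 357 in KO libraries, against 641, 591 and 591 in WT libraries (-0.64), and the antiviral genes RSAD2 and PARP14 fell by 1.96 and 0.53 log2 units. SAMD9L went the other way, with 44.8, 40.8 and 37.8 in KO libraries, against 11.96, 11.99 and 12.9 in WT libraries (1.66), while its neighbour SAMD9 fell (253 in KO and 481 in WT). The sensor RIGI did not pass (341 in KO and 356 in WT). The core of the interferon response element, GAAA repeated after a gap of any 2 bases, on either strand, was in 23 of 38 promoters of the list (60.5%) and in 15 of the 22 members with a promoter that fell, against 2.79% of the 10954. GBP3 at chr1:89022817-89023116 (minus strand) and HERC5 at chr4:88456869-88457168 (plus strand) are shown with the core in capitals; GBP3 holds it just after its start, HERC5 in 3 copies of which a pair overlap.
GBP3 promoter: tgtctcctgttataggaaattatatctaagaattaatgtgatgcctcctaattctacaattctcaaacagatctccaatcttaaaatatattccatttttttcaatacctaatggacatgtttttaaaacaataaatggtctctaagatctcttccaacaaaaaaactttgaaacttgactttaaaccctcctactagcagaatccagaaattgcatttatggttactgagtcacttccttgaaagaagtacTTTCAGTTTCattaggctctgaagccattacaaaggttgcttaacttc
HERC5 promoter: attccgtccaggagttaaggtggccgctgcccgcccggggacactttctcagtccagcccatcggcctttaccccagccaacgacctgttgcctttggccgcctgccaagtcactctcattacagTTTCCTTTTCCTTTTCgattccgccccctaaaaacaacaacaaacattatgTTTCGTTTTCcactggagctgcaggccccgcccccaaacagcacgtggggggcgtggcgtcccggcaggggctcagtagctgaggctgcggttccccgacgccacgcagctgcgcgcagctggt

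Genes of MHC class I antigen presentation fell in 12 of 19 and rose in 2, with a median of -0.29. The immunoproteasome subunit PSMB8 had 284, 315 and 282 in KO libraries, against 1044, 1010.0 and 1027 in WT libraries (log2 fold change -1.81 ± 0.072 (SE), adjusted p = 2.05e-14). NLRC5, the transactivator of class I genes, had 99.7, 101 and 106 in KO libraries, against 191, 166 and 191 in WT libraries (-0.83). ERAP2, which trims peptides, had 1739.9, 1546 and 1657 in KO libraries, against 2577, 2489 and 2492 in WT libraries (-0.61). The 2 immunoproteasome subunits PSMB9 (-0.71) and PSMB10 (-0.85) fell with PSMB8, whereas most constitutive proteasome genes rose. NF-kB, cytokine and chemokine genes had 7 higher and 9 lower of 27, among them LCN2, an iron-scavenging lipocalin, at 721, 714 and 719 in KO and 256, 259.7 and 276 in WT (1.44) and the alarmin IL33 at 263, 188 and 232 in KO and 476, 483 and 442 in WT (-1.05).

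**Figure D2:**
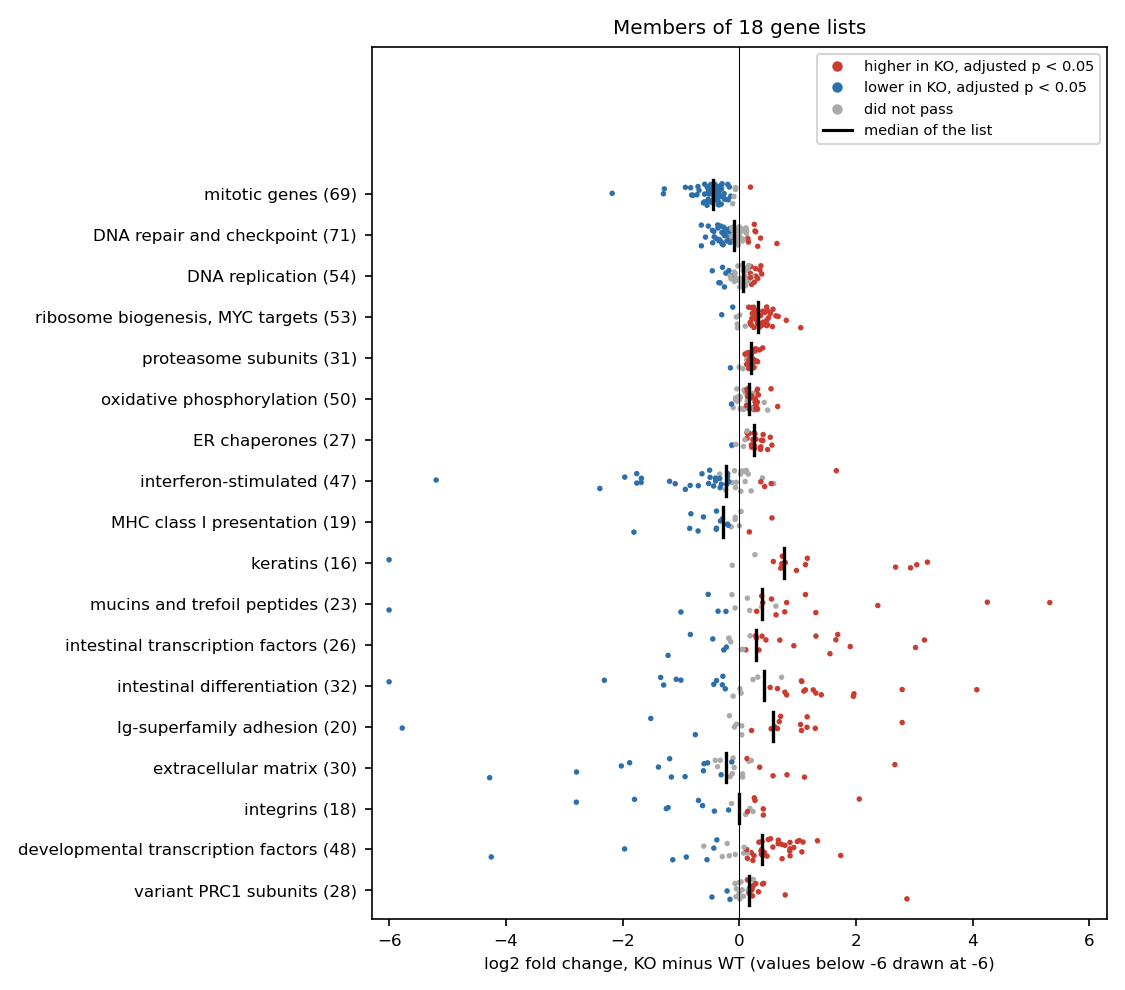
Log2 fold change, KO minus WT, of every tested member of 18 gene lists, 1 point per gene; the number tested is beside each list and the black line is its median. Mitotic genes lie almost wholly left of 0 (median -0.44), biogenesis genes right of it (0.32), and keratins furthest right (0.76); points below -6 are drawn at -6, and those of genes listed at 0 in KO, such as KRT20, depend on the pseudocount.

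Keratins, the intermediate filament proteins of epithelia, rose. Of 16 keratins tested, 12 rose, 1 fell and 3 did not pass, with a median of 0.76. The simple epithelium keratins KRT8 (57212 ± 1054 in KO and 34986 ± 1158 in WT) and KRT18 (45847 ± 1124 in KO and 27579 ± 33.3 in WT), partners in the same filament, rose by 0.71 and 0.73 log2 units, and KRT19 by 0.74. Keratins of stratified epithelium rose further from low levels. KRT4 had 85.7, 90.6 and 91.6 in KO libraries, against 9.97, 9.99 and 9.95 in WT libraries (log2 fold change 3.04 ± 0.17 (SE), adjusted p = 7.25e-12). KRT16 had 49.8, 30.9 and 53.7 in KO libraries, against 3.99, 3.996 and 6.96 in WT libraries (2.93) and KRT6A had 21.9, 20.9 and 23.9 in KO libraries, against 2.99, 2.997 and 1.99 in WT libraries (2.68), with close paralogs for both. KRT20, the keratin of mature intestinal cells, was the exception, listed at 0 in KO libraries and at 229, 194 and 170.1 in WT libraries.

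Mucins and trefoil peptides rose in 12 of 23 and fell in 5. The gastric mucin MUC5AC had 5118, 5241 and 4837 in KO libraries, against 2644, 3068 and 3164 in WT libraries (log2 fold change 0.78 ± 0.075 (SE), adjusted p = 1.9e-07). MUC2, the intestinal goblet cell mucin, had 48.8, 57.7 and 50.8 in KO libraries, against 19.9, 26.97 and 15.9 in WT libraries (1.31). The trefoil peptides TFF1, TFF2 and TFF3, which are secreted with mucins, rose by 0.81, 2.37 and 1.13; TFF3 had 470.4, 576 and 640.0 in KO libraries, against 247, 248 and 267 in WT libraries. The gel-forming mucins MUC2, MUC5AC, MUC5B and MUC6 were all higher in KO, while the membrane mucin MUC13 fell (443 in KO and 888 in WT) and GALNT5, which starts O-glycans, was at 0 in KO and 111, 111 and 109 in WT libraries. SPDEF, the goblet cell transcription factor, had 47.8, 52.8 and 66.7 in KO libraries, against 5.98, 4.99 and 6.96 in WT libraries (log2 fold change 3.02 ± 0.28 (SE), adjusted p = 1.55e-08).

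Intestinal transcription factors rose in 15 of 26, 7 of them at least 2-fold, and fell in 5. HNF4G, an enterocyte nuclear receptor, had 203, 160.2 and 191 in KO libraries, against 69.8, 48.95 and 52.7 in WT libraries (1.69). ISX, an intestinal homeobox factor, had 207, 221 and 217 in KO libraries, against 80.7, 104 and 75.6 in WT libraries (1.31). GFI1, a repressor of secretory cells, had 111, 112 and 120.4 in KO libraries, against 32.9, 40.96 and 41.8 in WT libraries (1.55). KLF5 of the crypt rose (5952 in KO and 3679 in WT, 0.69) and KLF4 of differentiated cells fell (400.3 in KO and 549 in WT, -0.45). Differentiation and brush border genes went both ways, 15 higher and 11 lower of 32. VIL1, the villin of microvilli, had 1918, 2239 and 2134 in KO libraries, against 540.2, 519 and 558 in WT libraries (1.96) and the alkaline phosphatase ALPP had 443, 495 and 431 in KO libraries, against 115, 119 and 114 in WT libraries (1.96), but the peptidase DPP4 had 68.8, 56.7 and 70.7 in KO libraries, against 155, 166 and 181 in WT libraries (-1.35) and the cadherin CDH17 fell (-0.29). Without WT replicate 3 the median of this list was 0.22 in place of 0.42.

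**Figure D3:**
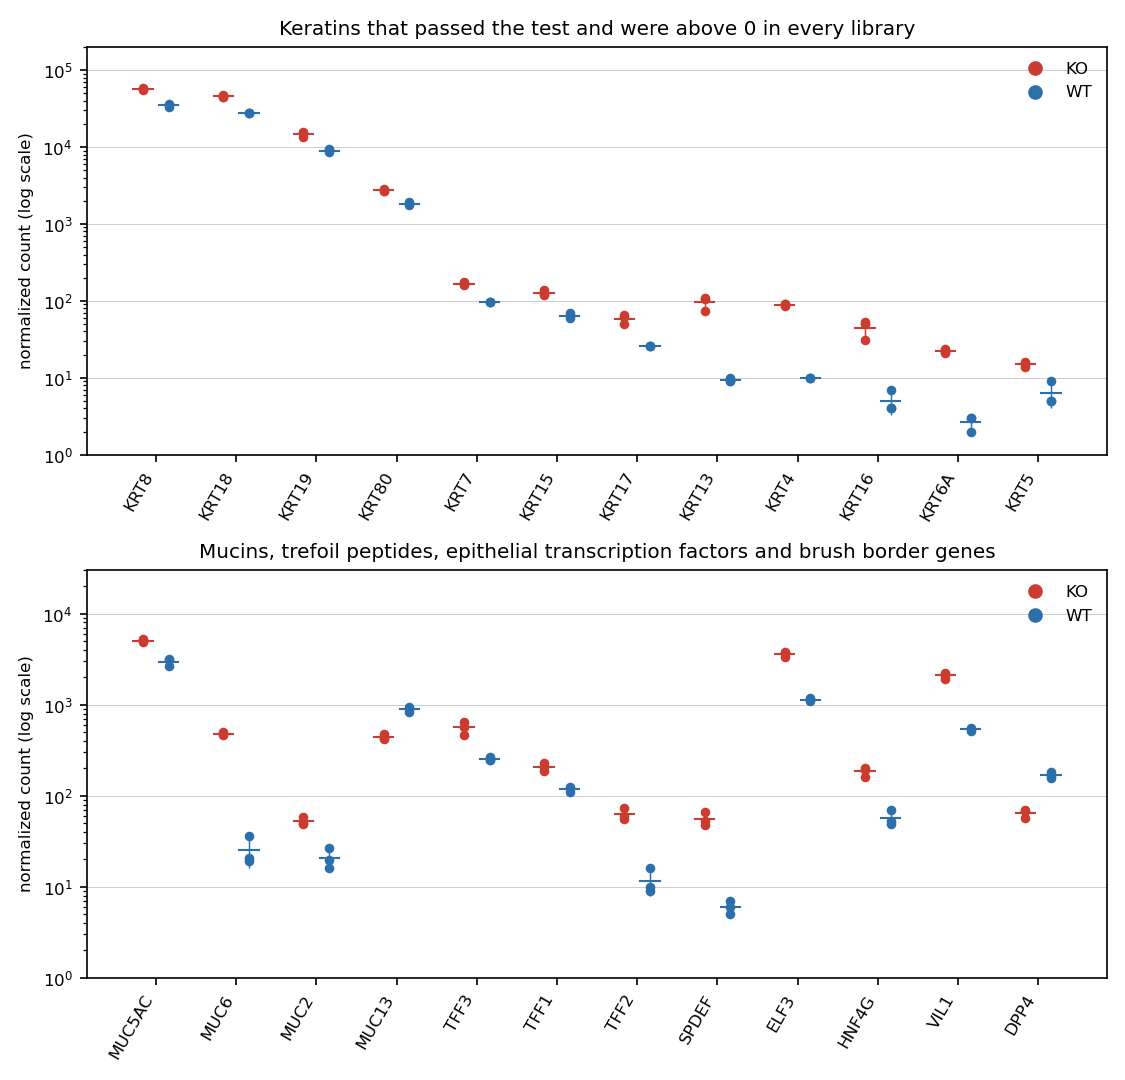
Normalized counts (log axis) of the 12 keratins that rose (top) and of mucins, trefoil peptides, epithelial transcription factors and brush border genes (bottom). Points are libraries, KO left of WT, with the mean and ± SD (n = 3); every keratin shown, and every gene of the bottom panel except MUC13 and DPP4, is higher in KO.

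Of 20 immunoglobulin-superfamily adhesion genes 12 rose and 3 fell, with NECTIN1 at 924, 991 and 838 in KO libraries, against 363, 375 and 375 in WT libraries (log2 fold change 1.30 ± 0.064 (SE), adjusted p = 7.81e-13), while NECTIN3 was at 0 in KO and 50.8, 57.9 and 52.7 in WT libraries and CADM1 fell (175 in KO and 502 in WT). Tight junction, adherens junction and desmosome genes rose in 19 of 36 and fell in 8; the tight junction protein OCLN had 747, 722 and 735 in KO libraries, against 393, 379.6 and 366 in WT libraries (0.95) and E-cadherin CDH1 had 19378 in KO and 14668 in WT (0.40). The epithelial transcription factors GRHL3 (3178 in KO and 1450.4 in WT) and OVOL1 (552 in KO and 256 in WT) rose and OVOL2 fell (41.2 in KO and 106 in WT), and SNAI1, which represses E-cadherin, rose (138, 160.2 and 127 in KO and 45.8, 49.9 and 47.7 in WT). N-cadherin CDH2 was low and fell (7.63 in KO and 19.9 in WT). Calcium-binding S100P had 2944, 2980.0 and 3106 in KO libraries, against 910.0, 859 and 898 in WT libraries (1.76).

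Extracellular matrix genes fell more often than they rose, 13 and 6 of 30 (43.3% and 20%, beside 24.8% and 24.8% of all genes). At least 2-fold lower were 7 of the 30 (23.3%, beside 5.06% of all genes). LAMA3, a laminin chain of the epithelial basement membrane, had 626, 641 and 605 in KO libraries, against 2453, 2559 and 2595 in WT libraries (log2 fold change -2.02 ± 0.052 (SE), adjusted p = 1.2e-17). COL17A1, the collagen of hemidesmosomes, had 181, 202 and 256 in KO libraries, against 406, 536 and 487 in WT libraries (-1.16). The perlecan gene HSPG2 fell (863 in KO and 1648 in WT), and COL6A1 rose (59.8, 83.6 and 85.6 in KO and 8.97, 14.98 and 9.95 in WT, 2.67). Integrins changed in opposite directions, with ITGB6, which activates TGF-beta, at 149, 136 and 145 in KO libraries, against 530.2, 475 and 499 in WT libraries (-1.80), and ITGA9, a tenascin receptor, at 319, 308 and 291 in KO libraries, against 68.8, 76.9 and 72.6 in WT libraries (2.06). Actin and myosin genes were mixed as a list, 10 higher and 14 lower of 44; smooth muscle actin ACTA2 fell (19.9, 15.9 and 21.9 in KO and 80.7, 77.9 and 92.5 in WT) and non-muscle myosin MYH10 rose (1686 in KO and 1069 in WT). Of YAP pathway genes 11 fell and 8 rose of 33 (33.3% and 24.2%, beside 24.8% and 24.8% of all genes). TEAD2, a DNA-binding partner of YAP, was at 0 in KO and 392, 373 and 362 in WT libraries, its paralog TEAD1 rose (0.26), the scaffold AMOT fell (149, 148 and 140.3 in KO and 352, 362 and 357 in WT) and VGLL1, another TEAD partner, rose (106, 116 and 108 in KO and 29.9, 29.97 and 29.8 in WT).

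Ligands and receptors of the main signalling pathways changed in both directions. In the TGF-beta family the ligand TGFB2 had 67.8, 38.8 and 61.7 in KO libraries, against 577, 542 and 556 in WT libraries (log2 fold change -3.33 ± 0.18 (SE), adjusted p = 4.62e-11), whereas TGFB3 had 496, 526 and 581 in KO libraries, against 162, 199 and 181 in WT libraries (1.56) and TGFB1 rose (0.79). BMP2 fell (34.2 in KO and 140.2 in WT) and so did BMP4 (-0.50). The inhibitory SMAD6 had 260.1, 254 and 277 in KO libraries, against 55.8, 64.9 and 60.7 in WT libraries (2.11) and the pseudoreceptor BAMBI rose (987 in KO and 475 in WT). The target TGFBI fell (1656 in KO and 3580.5 in WT), and the list as a whole had 12 higher and 16 lower of 42.

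Wnt pathway genes rose in 23 of 47 and fell in 7. The ligands WNT7B (302, 351 and 316 in KO and 106, 105 and 128 in WT, 1.51) and WNT10B (1.64) and the receptors FZD4 (1.31) and LGR4 (729.9 in KO and 354 in WT) rose. WNT5B was at 0 in KO and 69.8, 71.9 and 60.7 in WT libraries. The stem cell receptor LGR5, paralog of LGR4, had 212, 212 and 245 in KO libraries, against 1258, 1279 and 1268 in WT libraries (-2.51), the feedback gene NKD1 fell (521 in KO and 802 in WT) and the stem cell surface gene PROM1 fell (1.66 in KO and 34.2 in WT). Notch genes rose in 12 of 26 and fell in 3; the receptor NOTCH1 had 589, 688 and 623 in KO libraries, against 237, 265 and 292 in WT libraries (1.26), the ligand JAG2 rose (1723 in KO and 1030.3 in WT) and the target HES1 rose by 0.28. Without WT replicate 1, 1 Notch gene fell, and without WT replicate 2 none (0) did.

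Receptor tyrosine kinases and their ligands had 23 higher and 11 lower of 46. The receptor KIT had 543, 545 and 560.3 in KO libraries, against 2110.0, 2039 and 2065 in WT libraries (log2 fold change -1.91 ± 0.063 (SE), adjusted p = 9.19e-16), and EGFR fell (1801 in KO and 2564 in WT) together with its ligands EREG, AREG and BTC. MET (6825 in KO and 4321 in WT), ERBB3 (3903 in KO and 2999 in WT) and the EGFR ligand TGFA (0.37) rose. The adaptor IRS1 fell (1036, 1104 and 1056 in KO and 2362, 2701 and 2622 in WT) and IRS2 rose (196, 176 and 176 in KO and 78.7, 82.9 and 85.5 in WT). ERK output and feedback genes went both ways, with 10 higher and 11 lower of 34 and a median of 0.10. These were 29.4% and 32.4%, beside 24.8% and 24.8% of all genes. Those that fell included the phosphatase DUSP6 (1188, 1037 and 1192 in KO and 2368, 2437 and 2281 in WT, -1.05), SPRED1 (-0.61) and the ETS factor ETV1 (8.97, 1.99 and 21.9 in KO and 129.6, 132 and 151 in WT). Of the Eph family EPHB6 fell (220.2, 237 and 217 in KO and 780.4, 832 and 913 in WT) and EPHA2 rose (2413 in KO and 1564 in WT). In retinoid metabolism, 8 of 16 rose, among them the retinoic acid carrier CRABP2 (879.9, 927 and 869 in KO and 257, 268 and 283 in WT), the retinol dehydrogenase RDH10 (1375 in KO and 548 in WT) and the retinol-binding protein receptor STRA6 (41.2 in KO and 5.98 in WT), while CYP26B1, which degrades retinoic acid, fell (265 in KO and 449.9 in WT).

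Subunits of the Polycomb complexes that USP7 joins changed by small amounts. Of 28 variant PRC1 genes, 13 rose and 3 fell, and AUTS2, which sits in variant complexes with PCGF3 or PCGF5 and is linked to activation, was the one past 2-fold (1 fell without KO replicate 1 in the fit), with 221, 249 and 233 in KO libraries, against 30.9, 34.96 and 27.9 in WT libraries (log2 fold change 2.87 ± 0.13 (SE), adjusted p = 3.14e-13). RYBP, a subunit of variant complexes, had 1094, 996 and 1052 in KO libraries, against 796, 788 and 797 in WT libraries (0.40), and the H2A ubiquitin ligase RNF2 had 411, 365 and 409 in KO libraries, against 358, 345 and 319 in WT libraries (0.21). MGA, of the PCGF6 complex, rose (1096 in KO and 872 in WT). In canonical PRC1, CBX7, which binds methylated histone H3, had 253, 267 and 295 in KO libraries, against 449.5, 433 and 429.7 in WT libraries (-0.69), BMI1 had 347, 319 and 345 in KO libraries, against 516, 529 and 408 in WT libraries (-0.51) and CBX2 rose (0.28). The PRC2 core genes EZH2 (1149 in KO and 1156 in WT), EED (658 in KO and 663 in WT) and SUZ12 (1922 in KO and 2008 in WT) did not pass; of the accessory subunits EPOP (473 in KO and 334 in WT) and AEBP2 (875 in KO and 651 in WT) rose and PHF1 fell (304 in KO and 469 in WT). Among H2A deubiquitinases 2 rose and 3 fell of 11 (18.2% and 27.3%, beside 24.8% and 24.8% of all genes), with 5 lower under TMM scaling. The H3K4 demethylase KDM5B rose (974, 1053 and 1040.1 in KO and 508, 493 and 521 in WT, 1.01). Transcription factors of development, typical targets of Polycomb marks, rose in 33 of 48 (68.8%, with 24.8% of all genes higher) and fell in 7, with a median of 0.38. The list held 122 genes, and only these 48 passed the filter on low values, so the counts leave out most of it. TFAP2A had 229, 259.8 and 263 in KO libraries, against 151, 136 and 123 in WT libraries (0.87), GATA2 had 374, 360.3 and 386 in KO libraries, against 221, 209.8 and 247 in WT libraries (0.73), EN2 had 84.7, 90.6 and 89.6 in KO libraries, against 45.8, 45.95 and 39.8 in WT libraries (1.00) and DLX1 had 27.9, 31.9 and 33.8 in KO libraries, against 8.97, 7.99 and 8.95 in WT libraries (1.74). SOX6 fell (11.96, 11.9 and 16.9 in KO and 55.8, 59.9 and 50.7 in WT) and DLX3 was at 0 in KO and 15.9, 22.98 and 15.9 in WT libraries. At least 2-fold changes were 5 higher and 3 lower (10.4% and 6.25%, beside 3.65% and 5.06% of all genes). HOX genes, taken as a family by symbol, had 9 higher and 7 lower of 27, with a median of 0.04. These were 33.3% and 25.9%, beside 24.8% and 24.8% of all genes.

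Transport and metabolic genes showed individual large changes within mixed lists. Epithelial ion and water transport genes rose in 16 of 30 and fell in 7; the water channel AQP3 had 969, 1093 and 1046 in KO libraries, against 206, 204 and 217 in WT libraries (log2 fold change 2.30 ± 0.090 (SE), adjusted p = 1.48e-14), the sodium-proton exchanger SLC9A2 had 1542, 1549 and 1480.0 in KO libraries, against 482, 495 and 461 in WT libraries (1.67) and the chloride channel CFTR fell (1438 in KO and 2097 in WT, -0.54). Glycolysis and hypoxia genes fell in 17 of 40 and rose in 9 (42.5% and 22.5%, beside 24.8% and 24.8% of all genes). PKM was at 35587 in KO and 45735 in WT, and the glucose transporter SLC2A3 at 19.9, 20.9 and 17.9 in KO and 81.7, 76.9 and 103 in WT. The hypoxia factor EPAS1 was at 1429, 1556 and 1549 in KO and 704, 790.2 and 766 in WT (1.00). Cholesterol synthesis genes rose in 13 of 26 and fell in 2. In fatty acid metabolism ACSL1 rose (2201 in KO and 1024 in WT) and the desaturase FADS2 fell (143, 129 and 121 in KO and 429, 449 and 466 in WT) beside FADS1 at 0. Of NRF2 and glutathione genes, NQO1 fell (4169.8 in KO and 7885 in WT) with AKR1C3 (8.63 in KO and 161 in WT), which has near-identical paralogs, and MGST1 rose (1477 in KO and 604 in WT). Serine synthesis PHGDH fell (3218 in KO and 5048 in WT, -0.65) and the amino acid transporter SLC7A5 rose (10565 in KO and 6753 in WT, 0.65). Of 42 BCL2 family, caspase and death receptor genes 9 rose and 14 fell (21.4% and 33.3%, beside 24.8% and 24.8% of all genes). The pro-apoptotic BAK1 was higher (276 in KO and 195 in WT) and CFLAR, an inhibitor of death receptor signalling, lower (1006 in KO and 1559 in WT).

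Smaller families held further changes. Of 14 TNF receptor genes 5 fell at least 2-fold (35.7%, beside 5.06% of all genes), among them TNFRSF14 (3.99, 1.99 and 8.96 in KO and 66.8, 76.9 and 74.6 in WT, -3.80), a lymphocyte costimulation receptor, and TNFRSF11A (29.2 in KO and 73.8 in WT), the receptor RANK. Metallothioneins, which bind zinc and copper, fell in 3 of 5, with MT2A at 369, 360.3 and 364 in KO and 695, 831 and 827 in WT (-1.10) and MT1E at 178 in KO and 516 in WT; their sequences are close and reads may be shared. Of 25 potassium channel genes 6 rose and 6 fell at least 2-fold (24% each, beside 3.65% and 5.06% of all genes); KCNJ5, at 0 in KO, is among those that fell. The calcium-activated KCNN4 had 68.8, 72.7 and 76.6 in KO and 15.9, 19.98 and 11.9 in WT (2.15), KCNQ1 of epithelial potassium recycling had 381, 399 and 387 in KO and 776, 818 and 822 in WT (-1.05), and its partner subunit KCNE3 rose (1347 in KO and 814 in WT). Of 14 KLF factors 8 fell and 3 rose (57.1% and 21.4%, beside 24.8% and 24.8% of all genes). KLF8 was at 0 in KO and 59.8, 39.96 and 66.6 in WT libraries. Circadian clock genes had 6 higher and 5 lower of 21 (28.6% and 23.8%), near the 24.8% and 24.8% of all genes. The activator CLOCK rose (2185 in KO and 1522 in WT, 0.52). The output factors TEF (238, 249 and 238 in KO and 554, 566 and 548 in WT) and DBP (182 in KO and 362 in WT) and the repressor PER2 (318 in KO and 505 in WT) fell. Guidance ligands and receptors had 12 higher and 7 lower of 29, with the netrin receptor UNC5B at 208, 259.8 and 251 in KO and 70.8, 72.9 and 71.6 in WT (1.72), its ligand NTN1 higher (198 in KO and 82.7 in WT) and NTN4 lower (134 in KO and 345 in WT).

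Most splicing factors did not pass, 23 of 35, with 8 higher and 4 lower. The shares that rose and fell, 22.9% and 11.4%, were below the 24.8% and 24.8% of all genes. Lists with both directions included lysosome and autophagy genes (14 higher and 14 lower of 41) and histone lysine methyltransferases and demethylases (14 and 9 of 41). Of 32 USP7 partners and substrates, 9 rose and 10 fell; MDM2 was at 1207 ± 48.4 in KO and 1102 ± 79.7 in WT (0.13), UHRF1, which reads methylated DNA at replication forks, at 1154 ± 60.5 in KO and 906 ± 43.00 in WT (0.35), and the repressor BCL6 at 488 ± 35.05 in KO and 280.1 ± 5.58 in WT (0.80). Without WT replicate 2 in the fit, 6 of these partners fell; without KO replicate 1 or WT replicate 3, 5 splicing factors rose. Imprinted genes other than H19 and IGF2 included MEST, higher (1646 in KO and 1016 in WT), and PLAGL1, lower (740.1 in KO and 1110.1 in WT). Cancer-testis and germline genes stayed low, with 2 higher and 5 lower of 14, and 3 lower without KO replicate 1, KO replicate 2 or WT replicate 3.

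The 99 tested genes at 0 in KO libraries were also read in the same line with doxycycline, which shares the KO libraries as its baseline. Their summed counts were 0 in every KO library, 59.4 to 102 at day 1, 2124 to 2153 at day 3 and 2162 to 2239 at day 9, beside 9954 to 10112 in WT libraries. At days 3 and 9, 81 of the 99 were above 0 in every library and 18 were listed at 0. Over the 81 genes the day 3 level had a median of 21.5% of the WT level, with quartiles of 20.8% and 24.6%, and the day 9 level a median of 22.2%, with quartiles of 21.0% and 25.05%. Between the libraries of a group these 81 genes varied less than counting noise alone gives, with a median ratio of variance to mean of 0.0942 at day 3 and 0.115 at day 9, beside 0.693 for counting noise. The day 3 and day 9 values are therefore given as deposited and not read as expression levels, and whether they come from how the table was made was not tested. The day 3 and day 9 libraries carry another project code in their column names than the KO, WT and day 1 libraries, and the part of this in the values was not tested. For USP7 itself the doxycycline means were higher than in KO and WT, at 8239 ± 375 at day 1, 7828 ± 341 at day 3 and 4788 ± 336 at day 9.

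**Figure D4:**
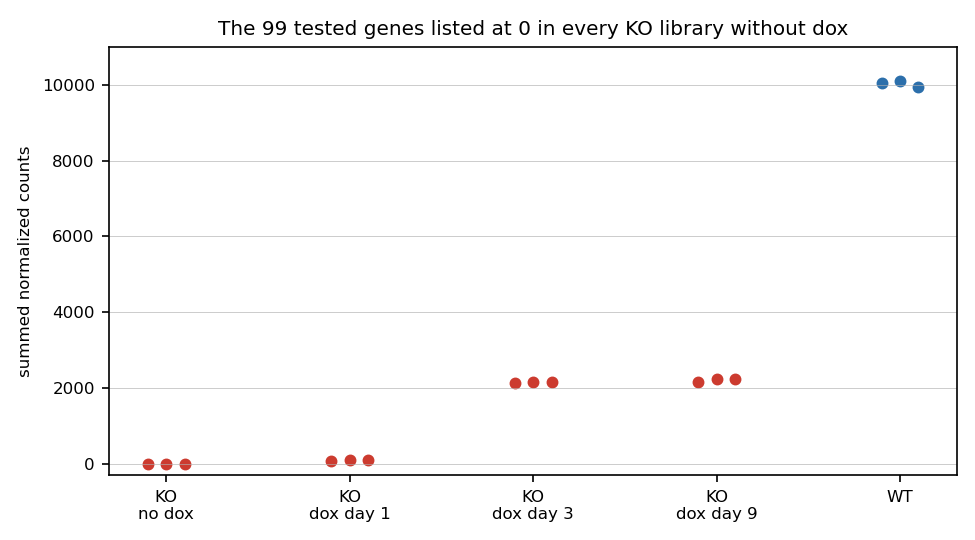
Summed normalized counts of the 99 tested genes that are listed at 0 in every KO library, 1 point per library, for KO, KO with doxycycline for 1, 3 and 9 days, and WT. The sum is 0 in KO, reaches 2239 at most with doxycycline and is at least 9954 in WT.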

How the data were processed

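RNA of DLD1 cells was isolated with TriPure, made into libraries with a stranded poly(A) kit and sequenced on a HiSeq2500, per the labels' protocols. HISAT2 2.1.0, hg19, HTSeq and DESeq2 are named in the submitters' processing notes; no source used here names the annotation, how strand was handled in counting, or the version of either of those last tools. The table deposited by the authors holds a signal per gene and library, normalized counts by the column names and values; the raw counts were not used here, so counting intervals are not given. It lists 22706 genes, 22463 of them with a symbol; 1 gene with a text entry was left out.

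The 15134 genes that reached 10 in 3 or more libraries were tested. Values were taken as log2(value + 1) and fitted with limma 3.58.1 in R 4.3.3, with a mean-variance trend and robust variances, over all 15 libraries in 5 groups that share 1 estimate of the spread. A change was called at adjusted p under 0.05 (Benjamini-Hochberg). The labels do not say that replicates were separate cultures, so p-values reflect only how far these samples vary, and that variation may be technical. The same replicate number in KO and WT did not pair libraries: deviations of same-numbered libraries correlated at 0.0639, -0.00547 and -0.0212. The limma procedure was tested on simulated data.

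Genes named are the 15 largest increases and decreases of genes whose mean reached 100 and whose lowest library reached 10, the 10 of each at means from 2000 upward, genes at 0 in all libraries of a group, and members of gene lists and families. Both sets of largest changes hold only genes with adjusted p under 0.05 whose KO and WT libraries did not overlap. The members and lists were chosen with earlier results of these data known. Gene neighbours and types come from GENCODE v29 on another build and were used for order and class only. List medians were the same with genes at 0 in KO set to their floor. The medians could not have moved, because such genes stayed below them either way. Promoters are RefSeq's. A comparison of CpG content between gene sets and the interferon element among MHC genes are void, since under 80% of the sets compared had a promoter (78 of the 99 genes at 0 in KO). The set of all tested genes behind the motif shares is also under 80%, with a promoter for 72.4%. Motif shares are therefore a description of the 10954 promoters found and not a test of enrichment. Alternatives covered the pseudocount, the filter, the scaling, which groups entered the fit, leaving out single libraries, and a replicate block.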

Additional observations from a re-analysis of the deposited data

Results flagged for a closer look

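Genes that are at 0 in KO libraries had counts in libraries outside the KO and WT comparison. The lowest summed count of the 99 tested genes at 0 in every KO library was 59.4 at day 1 of doxycycline, 2124 at day 3 and 2162 at day 9, above the 0 of the KO libraries. The 81 of these genes that were above 0 in every day 3 and day 9 library varied little between the libraries of a group, with a median ratio of variance to mean of 0.0942 at day 3 and 0.115 at day 9, beside 0.917 in WT libraries and 0.693 for counting noise alone over 3 values. Over 4050 genes with means of 10 to under 200 in all groups the same ratio was 0.933 at day 3, 0.97 at day 9, 0.645 in KO libraries and 0.634 in WT libraries. The cause was not tested.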

How the results depend on the processing

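Of the 392 genes followed here besides USP7 (the largest changes, genes at 0 in a group, and the 6 of lowest adjusted p per list), none that was called changed sign under the alternatives run. The balance of higher and lower genes was even (3759 and 3760) and leaned either way with the scaling, 3783 and 3621 at equal medians and 3580 and 3907 with TMM. The count of genes at least 2-fold higher was 553 and was 350 with a pseudocount of 10 and 314 with a filter of at least 50; the count at least 2-fold lower was 766, with 487 at a pseudocount of 10, 1272 with no filter and 352 with a filter of at least 50. A larger pseudocount shrinks low genes by construction and a filter changes which genes are tested. Leaving out 1 library at a time gave 3261 to 3307 genes higher and 3148 to 3360 lower, 515 to 563 and 666 to 789 at 2-fold, and a USP7 log2 fold change of -1.29 to -1.28. With the replicate block, 3997 genes were higher and 3939 lower, 553 and 773 at 2-fold, with USP7 at -1.29, and of the genes followed it newly called BRCC3; of the list counts it moved the ER chaperone genes lower, 2 in place of 1, by more than 1.5 times. With only the 6 KO and WT libraries 4481 were higher and 4325 lower. Of the genes followed, 9 gene-by-setting results were no longer past the threshold and 3 newly passed it, among VWF, PIWIL2, PIWIL4 and BRCC3; 5824 kept their side. Of list counts, 59 moved by more than 1.5 times and 1741 did not; most were in counts of 5 members or fewer. Of list medians, 56 moved by more than the spread between replicates and 844 did not, with 2 to 7 moved for each library left out. The median of NF-kB, cytokine and chemokine genes was -0.12 and became 0.07 without KO replicate 3, that of integrin subunits was -0.01 and ranged from -0.16 to 0.16, that of circadian clock genes was 0.09 and became -0.08 with no filter, and other medians close to 0 changed sign too. Count tests with edgeR or DESeq2 on recovered reads were not run, because size-factor steps this close to 1 could not be told from rounding.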
